A study of Mus musculus with 8 samples.

Results

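Blood vessel endothelial nuclei were selected from single-nucleus RNA counts of mouse visceral white adipose tissue. A barcode had to hold at least 1000 UMIs (unique molecular identifiers, one per captured RNA molecule) from 300 genes or more, with no more than 5% of its UMIs mitochondrial. It then had to show at least 3 of the 7 markers Pecam1, Cdh5, Flt1, Ptprb, Cyyr1, Adgrl4 and Mecom, and fewer than 2 of the lymphatic markers Prox1, Mmrn1, Reln and Flt4. Its summed UMIs of Flt1, Ptprb and Cyyr1 also had to exceed the sums for adipocyte (Plin1, Plin4, Cidec), progenitor (Pdgfra, Dcn, Col3a1) and macrophage (Adgre1, Csf1r, Mertk) genes. The rule kept 4278 of 77987 nuclei.

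The tissue came from 8 mice, 2 per group, with 1 library each, and all carried an altered p21 (Cdkn1a) locus. The mCherry SD group had the genotype p21+/mCherry and ate a standard diet. The mCherry HFD group had the same genotype and ate a high-fat diet. The Tert HFD and TertCi HFD groups ate the high-fat diet with the genotypes p21+/mCherry-Tert and p21+/mCherry-TertCi, in which the p21 promoter drives the added Tert or TertCi. What sets TertCi apart is not spelled out in the labels, and age is not given in the sources used here. The series' design text speaks of stromal vascular cells and of p21+/- mice, so the sample labels were followed. Libraries are named below by group and mouse number.

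Endothelial cells line blood vessels and differ along the vessel tree. Arterial cells depend on Notch signalling and carry the gap junction protein of Gja5, venous cells are specified by the transcription factor Nr2f2, and capillary cells exchange solutes with the tissue. In white fat, capillary endothelium hands fatty acids to adipocytes, with Gpihbp1 anchoring lipoprotein lipase at the vessel wall, Cd36 taking up fatty acids and Fabp4 binding them.

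The mCherry SD libraries gave 95 (rep144) and 367 (rep146) endothelial nuclei, and the mCherry HFD libraries gave 795 (rep128) and 83 (rep129). The Tert HFD libraries gave 1208 (rep134) and 122 (rep136), and the TertCi HFD libraries gave 1239 (rep138) and 369 (rep140). The median endothelial nucleus held between 1617 UMIs in mCherry SD rep144 and 2712 in mCherry HFD rep128, and the summed endothelial UMIs of a library ran from 198003 to 3772129. The thinnest libraries were therefore mCherry SD rep144, mCherry HFD rep129 and Tert HFD rep136, one in each of 3 groups. All 7 markers were seen in 989 nuclei and exactly 3 in 278. Just outside the rule lay 158 nuclei with 2 markers, 351 in which the endothelial sum tied the highest other sum and 252 in which it was 1 below, against 411 members in which it was 1 above.

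Genes that the rule did not use were also highest in these nuclei. Erg, an endothelial transcription factor, stood at 247 CPM (the gene's UMIs scaled to a common total) in endothelial nuclei, at 6.90 in progenitor nuclei and at 4.23 in macrophage nuclei, classed by the genes of the same rule. Egfl7, a protein secreted by endothelium, stood at 323, 11.6 and 8.20 CPM in the same order. The angiopoietin receptor Tek stood at 358, 159 and 14.0 CPM. Lymphatic markers outside the rule (Lyve1, Ccl21a and Pdpn) summed to 13.2 to 31.8 CPM per library, below the low-UMI level (defined next) in 7 of 8 libraries.

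Free RNA was present in every library. It was measured in barcodes of 1 to 100 UMIs, called low-UMI barcodes here, taken to hold RNA of no single nucleus. Across markers of other cells, the median level in endothelial nuclei was between 0.256 (mCherry HFD rep129) and 0.557 (TertCi HFD rep140) of the low-UMI level. The 9 adipocyte markers outside the rule summed to 5555 and 4228 CPM in endothelial nuclei of mCherry SD, 794 and 832 in mCherry HFD, 2375 and 4256 in Tert HFD, and 3721 and 3020 in TertCi HFD. The 9 macrophage markers ran the other way, at 1066 and 1081, then 2539 and 2570, then 1594 and 1707, and then 992 and 1175 CPM. The 9 progenitor markers summed to 1838 and 1319, 973 and 563, 1578 and 1542, and 1397 and 1345 CPM. At least 7 of 9 markers of each of these lists were above 0 in every library.

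**Figure D1:**
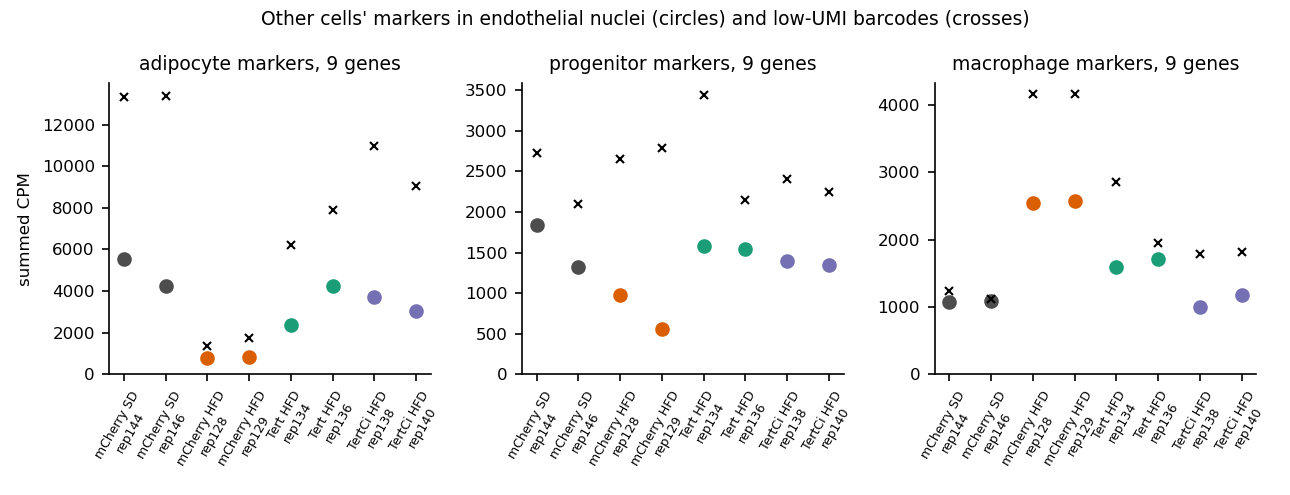
Summed CPM (vertical axis) of 9 adipocyte, 9 progenitor and 9 macrophage markers in each of 8 libraries (horizontal axis), with circles for endothelial nuclei and crosses for low-UMI barcodes; colours mark groups. In endothelial nuclei, adipocyte markers were lowest (794 and 832 CPM) and macrophage markers highest (2539 and 2570 CPM) in the mCherry HFD libraries.

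The mCherry HFD libraries also stood apart in other features of their RNA, in endothelial and in progenitor nuclei. In endothelial nuclei, genes whose names end in os (opposite strand) took 0.268% and 0.238% of UMIs there and 0.110% to 0.165% in the other 6 libraries. Predicted genes named Gm took 3.32% and 3.36% against 1.59% to 2.16%, and ribosomal protein genes took 0.569% and 0.388% against 0.124% to 0.239%. The same order held in progenitor nuclei, where ribosomal protein genes took 0.401% and 0.369% against 0.111% to 0.183%, and in low-UMI barcodes. The mCherry HFD group is the control of both genotypes and the high-fat arm of the diet comparison, so this feature and the group cannot be told apart. The 3 comparisons that use it share these libraries. Between any pair of libraries, 4 to 96 cell barcodes were shared.

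The test of the share of endothelial nuclei did not pass between groups, and with 2 mice a group it cannot show that the shares were alike. Endothelial nuclei made up 1.49% of nuclei in mCherry SD rep144 (95% Wilson interval 1.22% to 1.82%), 3.75% in mCherry SD rep146 (3.39% to 4.15%), 3.61% in mCherry HFD rep128 (3.38% to 3.87%) and 1.83% in mCherry HFD rep129 (1.48% to 2.26%). They made up 9.15% in Tert HFD rep134 (8.67% to 9.65%), 3.77% in Tert HFD rep136 (3.17% to 4.49%), 9.03% in TertCi HFD rep138 (8.56% to 9.52%) and 7.18% in TertCi HFD rep140 (6.51% to 7.92%). All 4 libraries with Tert or TertCi lay above all 4 libraries without, with Tert HFD rep136 at 3.77% only just above mCherry SD rep146 at 3.75%. The group means were 2.62% ± 1.60 (SD, n = 2), 2.72% ± 1.26, 6.46% ± 3.80 and 8.10% ± 1.31 in the order of the groups above. An exact permutation test of an F statistic over 2520 arrangements of the libraries gave p = 0.248, and the intervals cover counting error only.

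Set against progenitor nuclei of the same library, there were 0.0659 and 0.229 endothelial nuclei per progenitor nucleus in mCherry SD, 0.159 and 0.0539 in mCherry HFD, 0.343 and 0.246 in Tert HFD, and 0.463 and 0.410 in TertCi HFD. Again the 4 libraries with Tert or TertCi lay highest, and the exact permutation p was 0.152, or 0.248 adjusted over the pair of measures. With every nucleus thinned to 1000 UMIs before the rule, the shares were 1.07% and 2.97%, 2.99% and 1.35%, 7.78% and 2.63%, and 7.96% and 6.21%, with an exact permutation p of 0.286. Tert HFD rep136 was then below both mCherry SD rep146 and mCherry HFD rep128, and its ratio of 0.298 was below that of mCherry SD rep146 (0.348). With at least 5 of 7 markers its share (1.64%) and its ratio (0.107) were below those of mCherry SD rep146 (2.21% and 0.135) and mCherry HFD rep128 (3.26% and 0.143). Both TertCi HFD libraries stayed above all mCherry libraries in share and ratio under both settings. With at least 5 of 7 markers their shares were 6.99% and 5.53%, with an exact permutation p of 0.333 over the groups. In 3 libraries the number of nuclei by the rule (13202 to 21996) was above the number of nuclei that the labels say were loaded.

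**Figure D2:**
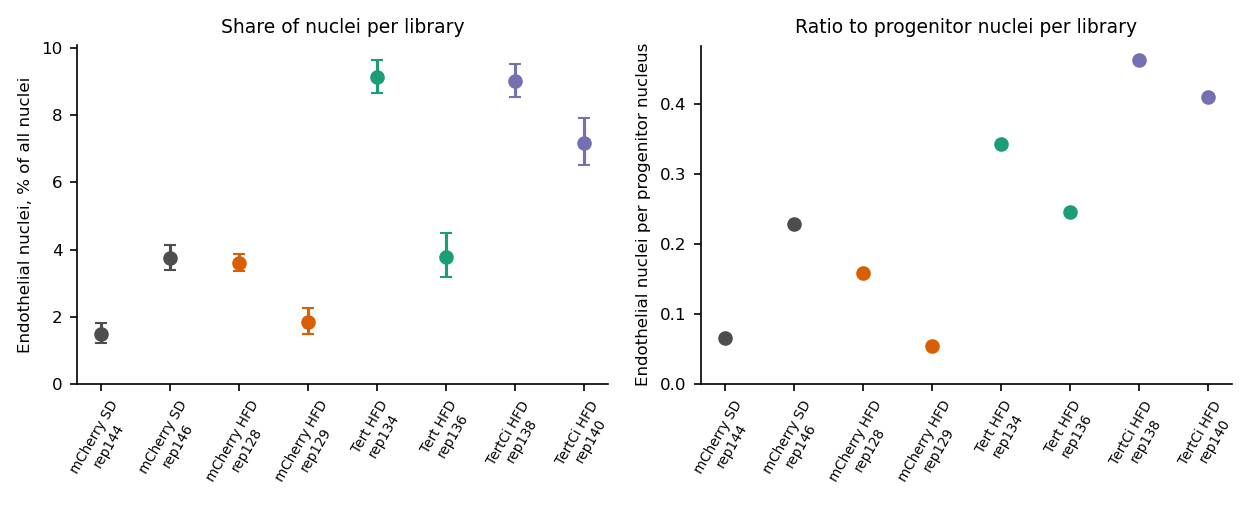
Left, endothelial nuclei as a percentage of all nuclei per library with 95% Wilson intervals for counting error; right, endothelial nuclei per progenitor nucleus; both axes start at 0 and colours mark groups. The TertCi HFD libraries sit at 9.03% and 7.18%, and the Tert HFD libraries are far apart at 9.15% and 3.77%.

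Clustering of the endothelial nuclei gave 16 clusters, and 7 of them, with 3139 nuclei (73.4%), were kept. In these no summed adipocyte, progenitor, macrophage, mural, mesothelial or T and NK marker list was over 3 times its median over the clusters. The B, dendritic, lymphatic and epithelial lists did not enter this cut, and no list held erythroid genes. One kept cluster was led by haemoglobin genes. The kept clusters are described by the markers of their class, with no test. Capillary-like clusters held 1679 nuclei, arterial-like clusters 944 and a venous-like cluster 370. The largest capillary-like cluster (1305 nuclei) was led by genes such as Slc1a1, Timp4 and Car4, a carbonic anhydrase of capillary endothelium. The other capillary-like cluster (374 nuclei) had 7 of 11 capillary markers raised but was led by the haemoglobin genes Hba-a1 and Hbb-bs, and 328 of its nuclei came from mCherry HFD rep128. The venous-like cluster was led by Adarb2, the leukocyte adhesion gene Selp and Kirrel3, an adhesion protein of the immunoglobulin family, and it held Vwf at 718 CPM and Nr2f2 at 257 CPM. Among arterial-like clusters, one of 311 nuclei was led by genes such as the Wnt inhibitor Dkk2, Prdm16 and Gja5. Another of 195 nuclei was led by predicted and opposite-strand genes, and 189 of its nuclei came from mCherry HFD rep128. The cluster left of the 7 had no class. It carried Kit, the placental growth factor gene Pgf and the cycling genes Mki67 and Kif4 among its leading genes, and 97 of its nuclei came from Tert HFD rep134.

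The other 9 clusters, with 1139 nuclei, carried genes of other cells beside the endothelial markers. The largest (532 nuclei) was led by genes such as St18, the macrophage elastase Mmp12 and the proton pump gene Atp6v0d2, and its median nucleus held 4021 UMIs. Clusters with progenitor (284 nuclei), adipocyte (102), mesothelial (76), T and NK (57) and mural (44) genes had medians of 3062 to 4366 UMIs, whereas the 7 clusters kept had medians of 1620 to 2574. No doublet caller was run, and whether these barcodes held more than 1 nucleus was not tested. A cluster of 26 nuclei, left unnamed, was led by Stab2, Dnase1l3, Clec4g and Gata4, genes known together from liver sinusoidal endothelium. Its macrophage markers summed to 4383 CPM, of which 2072 CPM was Mrc1. It held Stab2, a scavenger receptor for hyaluronan, at 5948 CPM, and 25 of its nuclei came from mCherry HFD rep128. A cluster of 11 nuclei, all from mCherry SD rep146, was led by genes such as Rbfox3, Lsamp and Myh11, and its mural markers summed to 4106 CPM. The smallest cluster (7 nuclei, all from mCherry HFD rep128) was led by genes such as Adam7, Lcn8 and Spag11b, and its median nucleus held 8351 UMIs.

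Of the kept nuclei, arterial-like ones made up 16.7% and 17.8% in mCherry SD, 34.9% and 26.4% in mCherry HFD, 32.4% and 35.3% in Tert HFD, and 28.0% and 32.9% in TertCi HFD. Venous-like ones made up 36.1% and 21.9%, 3.597% and 7.55%, 10.1% and 23.5%, and 15.1% and 8.39%. The arterial-like share was thus lower in both standard-diet libraries than in all 6 on the high-fat diet, and the venous-like share was lowest in the mCherry HFD libraries. These shares are a description, since the capillary-like cluster of 374 nuclei and the arterial-like cluster of 195 came mostly from mCherry HFD rep128 while other clusters held the same classes elsewhere. The count behind them was small in mCherry SD rep144 (36 kept nuclei), Tert HFD rep136 (51) and mCherry HFD rep129 (53). Only 37.9% of members in mCherry SD rep144 and 41.8% in Tert HFD rep136 were kept, against 63.9% to 78.1% elsewhere.

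**Figure D3:**
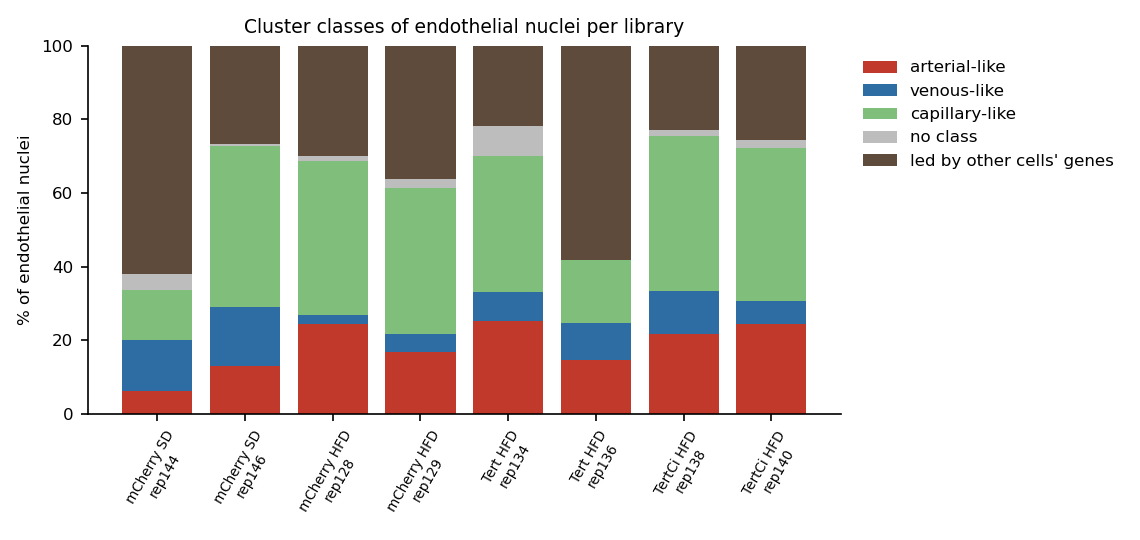
Stacked bars of the percentage of endothelial nuclei (vertical axis) in arterial-like, venous-like and capillary-like clusters, in a cluster with no class and in clusters led by other cells' genes, for 8 libraries. Kept nuclei make up 37.9% in mCherry SD rep144 and 41.8% in Tert HFD rep136.

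For tests of expression, counts were summed over the endothelial nuclei of each library and compared by the quasi-likelihood test of edgeR, adjusting over 10603 genes after Benjamini and Hochberg. A gene was called at an adjusted p under 0.05. In the diet comparison (mCherry HFD against mCherry SD) 12.8% of genes were called, with 755 (7.12%) higher and 603 (5.69%) lower on the high-fat diet. Against mCherry HFD, 7.31% were called for Tert (272 or 2.57% higher, 503 or 4.74% lower) and 16.0% for TertCi (623 higher, 1076 lower). Between Tert and TertCi 0% were called. Without mCherry HFD rep128 the counts were 434 for diet, 115 for Tert and 405 for TertCi. The diet count was 491 without mCherry SD rep146, and the TertCi count was 722 without TertCi HFD rep138 and 871 without TertCi HFD rep140. By DESeq2 the counts were 701, 323 and 699. By DESeq2 more of the called genes were higher than lower for Tert (176 against 147), the other way round from edgeR. The balance also turned in edgeR with a library left out, to 394 higher and 292 lower for Tert without Tert HFD rep134, and to 180 higher and 311 lower for diet without mCherry SD rep146.

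Most of these calls moved in the same way in the free RNA. Across genes, the log2 differences of endothelial nuclei and of low-UMI barcodes had a Pearson r of 0.78 for diet, 0.79 for Tert and 0.83 for TertCi, a description over 10603 genes that share libraries and depth. Of called genes, 98.01%, 98.8% and 98.2% had the same sign in low-UMI barcodes. Only 104 of the 1358 genes called for diet stood at 2 times the low-UMI level or more in their higher group, as did 66 of 775 for Tert and 155 of 1699 for TertCi. Such genes are called enriched over free RNA below, and 10.4%, 6.84% and 16.1% of the enriched genes tested were called. Higher and lower calls took 8.01% and 2.40% of them for diet, 1.87% and 4.97% for Tert, and 7.92% and 8.23% for TertCi. The filter reads a gene in its higher group, so a change can itself let a gene pass. These shares are therefore a description. When each library's free RNA was estimated and subtracted, an alternative chosen after seeing the data, 3 genes were called for diet, 2 for Tert and 11 for TertCi of 7330 tested, and 3, 2 and 9 of these were also called without the subtraction.

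**Figure D4:**
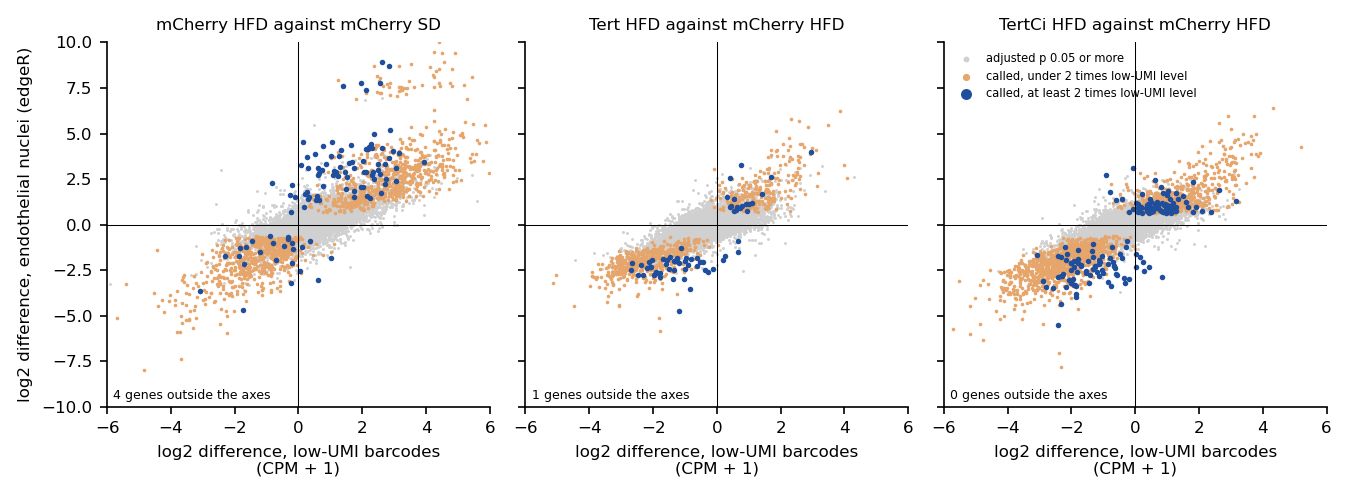
Each point is a gene, with its log2 difference in low-UMI barcodes (horizontal axis) against that in endothelial nuclei (vertical axis) for 3 comparisons; orange genes were called and blue genes were called and enriched over free RNA. Points run along the diagonal, with r of 0.78, 0.79 and 0.83, and blue genes are few (104, 66 and 155).

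On the high-fat diet, 3 arterial genes rose in endothelial nuclei of mCherry mice. They were Gja5 (connexin 40, which couples arterial endothelial cells), Bmx, a kinase gene known from arterial endothelium, and Fbln5, a matrix protein needed for elastic fibres. The sequences of the 250 bases before the RefSeq start of Gja5 and Bmx (GRCm38.p6, a build other than that of the counts) are shown because these are the defining arterial genes among the 3. Capitals mark CAGGAA, one 6-letter form of an ETS factor site, on either strand. The shorter ETS core GGAA was not marked or counted, and it does occur in the Gja5 window. The Gja5 window is chr3:97032152-97032401 on the plus strand and the Bmx window is chrX:164258194-164258443 on the minus strand.

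Gja5: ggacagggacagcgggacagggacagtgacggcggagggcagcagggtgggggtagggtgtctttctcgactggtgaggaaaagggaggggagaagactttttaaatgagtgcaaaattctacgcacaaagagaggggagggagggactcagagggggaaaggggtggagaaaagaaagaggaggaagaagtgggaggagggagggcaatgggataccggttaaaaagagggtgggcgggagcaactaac

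Bmx: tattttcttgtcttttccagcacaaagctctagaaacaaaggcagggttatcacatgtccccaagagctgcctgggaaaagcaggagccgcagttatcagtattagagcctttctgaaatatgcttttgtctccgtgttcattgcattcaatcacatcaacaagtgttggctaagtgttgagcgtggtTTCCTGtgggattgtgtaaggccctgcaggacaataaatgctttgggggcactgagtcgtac

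The Bmx window held 1 match and the Gja5 window 0, and each of 2 windows of Fbln5, not printed, held 1. None of them held ACAATG, a SOX factor core, on either strand. Of 32851 promoter windows of this length, 25.7% held CAGGAA and 10.7% held ACAATG, so the match is a description and not a site.

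Gja5 stood at 15.2 and 27.1 CPM in mCherry SD and at 84.3 and 44.9 CPM in mCherry HFD, against 2.90 and 3.84 CPM in low-UMI barcodes of the 2 groups. It was 1.40 higher on the log2 scale (SE 0.41, edgeR adjusted p = 0.035). Bmx stood at 5.05 and 35.3 CPM on the standard diet and at 105 and 93.8 CPM on the high-fat diet, a log2 difference of 1.69 (SE 0.49, adjusted p = 0.034). Fbln5 stood at 50.5 and 83.5 CPM and at 261 and 147 CPM, a log2 difference of 1.37 (SE 0.32, adjusted p = 0.0092). For all 3 genes both high-fat libraries lay above both standard-diet libraries. The groups did not overlap for any of the 104 enriched genes called for diet. In the Tert HFD and TertCi HFD libraries Gja5 lay between 49.98 and 87.5 CPM, and neither genotype was called against mCherry HFD for any of the 3. The test of a difference from progenitor nuclei did call Gja5. Its genotype effect, endothelial minus progenitor, was -1.67 for Tert (adjusted p = 0.018) and -1.46 for TertCi (0.042). Gja5 averaged 67.7 CPM in endothelial nuclei and 2.12 CPM in progenitor nuclei, the latter below its low-UMI level of 5.82 CPM.

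Each of the 3 arterial calls was lost without mCherry SD rep144 (adjusted p 0.119 for Gja5, 0.120 for Bmx, 0.052 for Fbln5), without mCherry SD rep146 (0.175, 0.053, 0.059) and without mCherry HFD rep128 (0.600, 0.2499, 0.321). Without mCherry HFD rep128 the log2 differences were 0.67, 1.55 and 0.78, and without mCherry SD rep146 that of Bmx was 4.05. With free RNA subtracted the differences were 1.16, 1.58 and 1.33 with no call (adjusted p 0.631, 0.596 and 0.485). Calls were also lost by DESeq2 for Gja5 (adjusted p = 0.128) and Bmx (0.249), in nuclei of at least 2000 UMIs for Gja5 (0.133) and Fbln5 (0.070), and with nuclei thinned to 1000 UMIs for Bmx (0.089). In nuclei of the 7 kept clusters the calls stood, at 1.58 (adjusted p = 0.018), 1.64 (0.0074) and 1.89 (0.0005). The kept clusters include the arterial-like one of 195 nuclei, 189 of them from mCherry HFD rep128. There the 3 genes stood at 427, 475 and 979 CPM. They also include the haemoglobin-led cluster, with 328 of its 374 nuclei from mCherry HFD rep128. In that cluster the 3 genes stood at 5.68, 6.81 and 126 CPM. The test of a difference from progenitor nuclei of the same libraries called Fbln5, at 1.14 higher in endothelial nuclei (SE 0.29, adjusted p = 0.0094), and not Gja5 (2.03, SE 0.62, adjusted p = 0.053) or Bmx (1.54, SE 0.62, adjusted p = 0.290).

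Within arterial-like nuclei themselves, Gja5 stood at 279 (2 UMIs) and 226 CPM in mCherry SD and at 416 and 279 CPM in mCherry HFD, and Bmx at 139 (1 UMI) and 238 and at 475 and 453 CPM. These nuclei came from different clusters, since 189 of the 194 in mCherry HFD rep128 were of the cluster of 195, which held no mCherry SD nucleus, and the clusters were classed by markers that include both genes. In mCherry SD rep144 the values rest on 6 arterial-like nuclei, so a higher level per arterial nucleus and a larger arterial share cannot be told apart for that library.

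The arterial list as a whole had 14 of 15 members tested, with 3 higher and 0 lower, beside 7.12% of all genes higher. Its tested members had a median log2 difference of 0.31, beside 0.02 over all genes tested. Of the members that did not pass, the transcription factor Sox17 stood at 1.22 (adjusted p = 0.072), the Notch ligand gene Dll4 at 0.14 and the ligand gene Efnb2 at -0.03. Of 10 venous genes tested, 3 were lower, beside 5.69% of all genes lower. Nr2f2 stood at 106 and 101 CPM in mCherry SD and at 39.5 and 44.9 CPM in mCherry HFD, and fell by 1.53 on the log2 scale (SE 0.39, adjusted p = 0.017). Its high-fat level was near that of low-UMI barcodes (44.0 CPM), and its call was lost without mCherry SD rep144, mCherry SD rep146 or mCherry HFD rep128 (highest adjusted p 0.224). The other 2 venous calls, the interleukin receptor gene Il1r1 (-1.06) and Tshz2 (-1.02), were not enriched over free RNA either. The call of Nr2f2 was also lost by DESeq2 (adjusted p = 0.054), in nuclei of at least 2000 UMIs (0.100), with thinning to 1000 UMIs (0.088) and with free RNA subtracted (-1.84, 0.444). Within venous-like nuclei Nr2f2 stood at 369 (6 UMIs) and 253 CPM in mCherry SD and at 331 and 329 CPM (2 UMIs) in mCherry HFD. That class was set by markers that include Nr2f2. The part of the venous-like share, given above, in the fall of Nr2f2 was not tested. In nuclei of the kept clusters neither Il1r1 (-0.73, 0.374) nor Tshz2 (-0.60, 0.141) was called. None of 11 capillary genes and none of 20 endothelial identity genes outside the rule was called for diet. Among members of the other lists, the adhesion gene Icam2 was enriched over free RNA and called for diet, as were 1 mural and 1 dendritic cell marker, both lower. Icam2 stood at 0 and 4.71 CPM in mCherry SD and at 37.6 and 16.3 CPM in mCherry HFD (2.90, SE 0.83, adjusted p = 0.032). It was enriched through mCherry HFD alone, where low-UMI barcodes held 5.25 CPM. In mCherry SD its mean was 2.35 CPM against 1.79 CPM in low-UMI barcodes. The call was lost by DESeq2 (0.197), with at least 5 of 7 markers (0.0503), with free RNA subtracted (2.96, 0.596) and without mCherry SD rep144 (0.089), mCherry SD rep146 (0.197) or mCherry HFD rep128 (0.517).

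Of 18 genes of fatty acid handling tested, Fabp5 and Lpl were higher for diet and the caveola gene Cavin1 was lower. These counts stand beside 7.12% of all genes higher and 5.69% lower, and none of the 3 genes was enriched over free RNA. Fabp5 averaged 56.7 CPM in endothelial nuclei, 28.9 in macrophage, 17.1 in progenitor and 6.54 in adipocyte nuclei, and 66.2 CPM in low-UMI barcodes. Its diet difference of 3.19 (adjusted p = 0.0045) was called in nuclei of the kept clusters (2.97, 0.0003), but not by DESeq2 (0.2495), without mCherry HFD rep128 (2.69, 0.109) or with free RNA subtracted (2.80, 0.541). The kept clusters include the haemoglobin-led one, mostly of mCherry HFD rep128, where Fabp5 was a leading gene at 303 CPM against 37.8 CPM in the other members. The call of Cavin1 was lost with free RNA subtracted (-1.73, adjusted p = 0.218). That of Lpl was lost in the kept clusters (0.56, 0.441), with nuclei thinned to 1000 UMIs (0.97, 0.054) and with an endothelial sum at least 3 times each other sum (1.19, 0.059). Lpl, which encodes lipoprotein lipase and is made by adipocytes and macrophages, stood at 687 CPM in mCherry HFD and 245 CPM in mCherry SD, below 1453 and 652 CPM in low-UMI barcodes. Cd36 stood at 1535 and 2202 CPM in mCherry SD, 3253 and 3292 in mCherry HFD, 2952 and 1399 in Tert HFD, and 3034 and 2133 in TertCi HFD. Its diet difference of 0.59 (SE 0.28) did not pass (adjusted p = 0.194), but was called with no filter on low counts (0.035) and without Tert HFD rep134 (0.046) or Tert HFD rep136 (0.039), and both high-fat libraries lay above both standard-diet ones. Gpihbp1 stood at 30.3 and 85.9, 204 and 61.2, 97.3 and 3.85, and 60.4 and 34.6 CPM, with overlapping diet groups (0.96, SE 0.59, adjusted p = 0.342). Fabp4 ranged from 377 CPM in Tert HFD rep136 to 2841 CPM in mCherry HFD rep128 and was not called. With no filter on low counts, Gpihbp1 (adjusted p = 0.024) and Fabp4 (0.030) were called higher for diet.

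**Figure D5:**
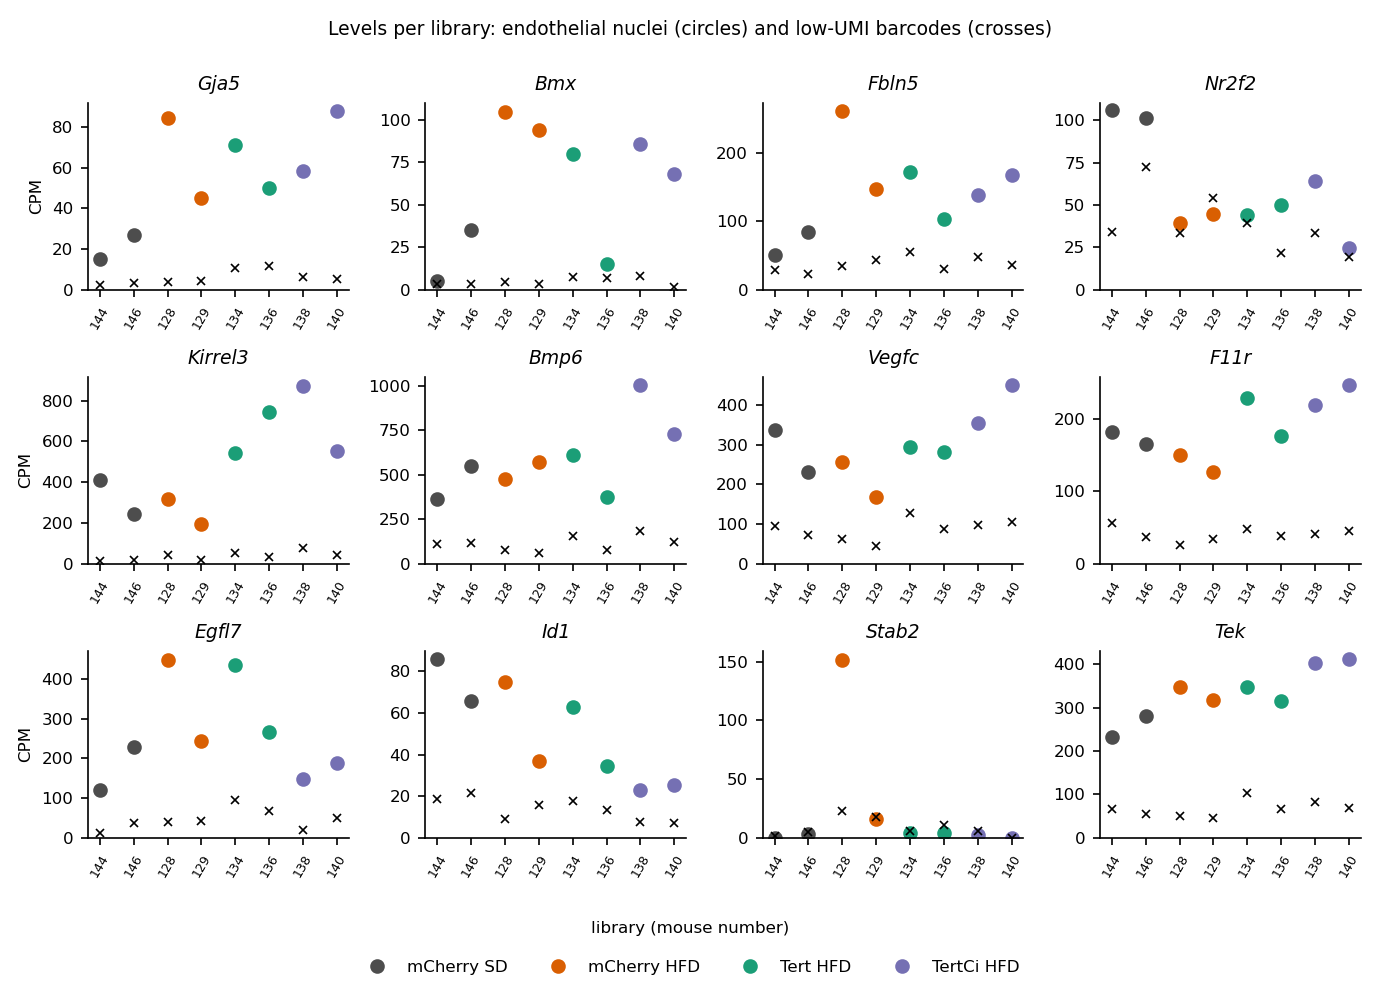
CPM (vertical axis, from 0) of 12 genes in each library (horizontal axis, mouse number), with circles for endothelial nuclei coloured by group and crosses for low-UMI barcodes. Gja5 lies at 15.2 and 27.1 CPM in mCherry SD and at 84.3 and 44.9 CPM in mCherry HFD, while Kirrel3 lies highest, from 544 to 873 CPM, in the 4 libraries with Tert or TertCi.

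Beyond the lists, the genes with the largest diet changes among those enriched over free RNA were mixed. Stab2 rose from 0 and 3.53 CPM to 151 and 16.3 CPM (4.98, SE 0.96, adjusted p = 0.0030). It was over 2 times its low-UMI level in 1 library only, so it was enriched through mCherry HFD alone. The call was lost without mCherry HFD rep128 (2.32, adjusted p = 0.475), the source of 25 of the 26 nuclei of the Stab2 cluster, without mCherry SD rep146 (10.3, 0.105) and by DESeq2 (5.01, 0.082). The predicted gene Gm43507 rose from 0 and 4.71 CPM to 151 and 167 CPM (5.17, SE 0.78, adjusted p = 0.0004), and kept its call with any 1 library left out but not with free RNA subtracted (4.94, 0.2155). Gm genes as a set were raised in the mCherry HFD libraries as given above. Gm49268, Gm15402, Gm13572 and Kif4, a kinesin of mitosis, were enriched through mCherry HFD alone, with 0 UMIs in both standard-diet libraries. Against 3 counts over that group, they were at least 13.4-fold, 14.7-fold, 7.28-fold and 8.19-fold higher. Without mCherry SD rep146 none of the 4 was called (adjusted p 0.152, 0.161, 0.292 and 0.314). Gm49268 (0.098), Gm13572 (0.122) and Kif4 (0.059) were not called without mCherry HFD rep128, nor Gm13572 (0.052) and Kif4 (0.055) without mCherry HFD rep129. In nuclei of at least 2000 UMIs Gm13572 was not called (0.054), and with free RNA subtracted none of Gm49268 (8.59), Gm15402 (8.50) and Gm13572 (7.56) was (adjusted p 0.364 to 0.564).

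Taco1, a mitochondrial translation activator, stood at 1177 and 717 CPM in mCherry SD and at 54.8 and 159 CPM in mCherry HFD, and fell by 3.67 on the log2 scale (SE 0.75, adjusted p = 0.0045). Progenitor nuclei of the same libraries gave -3.40, and the difference between the classes was -0.17 (SE 0.24, adjusted p = 0.984). For Ism1, Exoc3l2 and Rgs5 the fall differed from progenitors by that test. Ism1 fell from 55.6 and 35.3 CPM to 6.81 and 16.3 CPM (-2.54, SE 0.56, adjusted p = 0.0071), with a difference from progenitors of -2.76. Exoc3l2, a gene of vesicle tethering, fell from 55.6 and 54.1 CPM to 19.5 and 8.16 CPM (-1.84, SE 0.44, adjusted p = 0.012), with a difference of -3.03. The calls of Taco1, Ism1 and Exoc3l2 were lost without mCherry HFD rep128 (adjusted p 0.113, 0.330 and 0.074), and with free RNA subtracted (0.317, 0.691 and 0.331), where the log2 differences were -3.75, -3.86 and -2.59. That of Exoc3l2 was also lost without mCherry SD rep146 (0.142), by DESeq2 (0.072) and in nuclei of at least 2000 UMIs (0.139). Rgs5, a gene of pericytes that was highest in mural nuclei (574 CPM), fell from 80.8 and 30.6 CPM to 14.9 and 8.16 CPM (-1.94, SE 0.55, adjusted p = 0.030). Its difference from progenitors was -2.06 (SE 0.51, adjusted p = 0.0052). The summed mural markers in endothelial nuclei were 136.4 and 519 CPM on the standard diet and 167 and 118 CPM on the high-fat diet, and their part in the fall of Rgs5 was not tested. The call of Rgs5 was lost without mCherry SD rep144 (-1.32, adjusted p = 0.170), mCherry HFD rep128 (-2.72, 0.187) or mCherry HFD rep129 (-1.81, 0.067). It was also lost by DESeq2 (0.054), in nuclei of at least 2000 UMIs (0.129), with an endothelial sum at least 3 times each other sum (0.060), with thinning to 1000 UMIs (0.167) and with free RNA subtracted (-2.61, 0.574). The call stood in nuclei of the kept clusters (-2.12, edgeR adjusted p = 0.036) and with at least 5 of 7 markers (-2.83, 0.010). The kept clusters leave out those with mural genes, of which the one of 44 nuclei held Rgs5 at 468 CPM and the one of 11 at 0 CPM.

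With Tert or TertCi, Kirrel3 was higher than in mCherry mice on the same diet. The mCherry HFD libraries stood at 318 and 196 CPM, the Tert HFD libraries at 544 and 746 and the TertCi HFD libraries at 873 and 552, with those of mCherry SD at 409 and 242 CPM. All 4 libraries with Tert or TertCi lay above the other 4. The log2 difference from mCherry HFD was 1.39 for Tert (SE 0.32, adjusted p = 0.014) and 1.61 for TertCi (SE 0.31, adjusted p = 0.0023). Low-UMI barcodes averaged 28.9 CPM in the mCherry HFD libraries, 42.7 with Tert and 58.5 with TertCi, and progenitor nuclei differed by 0.38 and 0.47. In the separate fit over both classes with the library as a block, the endothelial difference exceeded that of progenitors by 1.04 (SE 0.26, adjusted p = 0.0092) and 1.43 (SE 0.25, adjusted p = 6.3e-06). With free RNA subtracted the differences were 1.69 and 1.93 with no call (adjusted p 0.503 and 0.108). The TertCi call held with any 1 library left out (1.30 to 2.12, highest adjusted p 0.025). The Tert call was lost without mCherry HFD rep129 (1.16, adjusted p = 0.088), with nuclei thinned to 1000 UMIs (1.00, 0.100) and with an endothelial sum at least 3 times each other sum (1.41, 0.053). In the venous-like cluster, of which it was a leading gene, Kirrel3 stood at 1229 and 396 CPM in mCherry SD (13 and 59 nuclei), 3625 and 1479 CPM in mCherry HFD (20 and 4 nuclei), 3750 and 6595 CPM in Tert HFD, and 4679 and 5501 CPM in TertCi HFD. The venous-like shares of kept nuclei are given above for all groups, and their part in the difference of Kirrel3 was not tested.

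Some endothelial genes enriched over free RNA were called for TertCi. Of 20 endothelial identity genes outside the rule, 1 was higher and 1 lower, and of 14 arterial genes 1 was higher, beside 16.0% of all genes called. Bmp6, a bone morphogenetic protein ligand made by endothelium, stood at 476 and 571 CPM in mCherry HFD and at 1004 and 732 CPM in TertCi HFD (0.96, SE 0.24, adjusted p = 0.011). Vegfc, a growth factor of the VEGF family that sits on the arterial list, stood at 256 and 167 and at 356 and 451 CPM (1.07, SE 0.25, adjusted p = 0.0078). The tight junction gene F11r stood at 150 and 127 and at 220 and 247 CPM (0.93, SE 0.21, adjusted p = 0.0065). The transcription factor Erg was 0.75 higher (212 and 155 against 293 and 261 CPM, adjusted p = 0.037). For Bmp6, Vegfc, F11r and Erg the libraries of the groups did not overlap, as for 153 of the 155 enriched genes called for TertCi. Vegfc and Bmp6 were also higher in progenitor nuclei (1.75 and 1.08), and the test of the difference from progenitors called none of Bmp6, Vegfc, F11r and Erg (lowest adjusted p 0.526).

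Other endothelial genes were lower with TertCi. Egfl7 stood at 449 and 245 CPM in mCherry HFD and at 148 and 187 CPM in TertCi HFD, and fell by 0.91 on the log2 scale (SE 0.29, adjusted p = 0.042). Id1, a target of BMP signalling, stood at 74.9 and 36.7 and at 23.0 and 25.5 CPM, and fell by 1.21 (SE 0.33, adjusted p = 0.022). Icam2 stood at 37.6 and 16.3 and at 7.67 and 4.07 CPM, and fell by 2.10 (SE 0.56, adjusted p = 0.017). Egfl7 in TertCi HFD lay within the range of the mCherry SD libraries (121 and 229 CPM). The ligand Bmp6 and the target Id1 of one pathway thus had opposite signs. On the list of TGF-beta and BMP genes, 1 of 18 tested was higher and 4 were lower, beside 5.88% of all genes higher and 10.1% lower.

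These TertCi calls were sensitive to single libraries and to the choice of nuclei. Without mCherry HFD rep128 the calls of Bmp6 (0.87, adjusted p = 0.167), F11r (1.14, 0.061), Erg (1.10, 0.089), Egfl7 (-0.29, 0.725), Icam2 (-1.09, 0.677) and Id1 (-0.36, 0.792) were lost. Without mCherry HFD rep129 the calls of Vegfc (0.87, 0.064) and Erg (0.60, 0.193) were lost. That of Icam2 was also lost without TertCi HFD rep138 (-2.67, 0.102) or TertCi HFD rep140 (-1.83, 0.132). Without TertCi HFD rep138 those of Bmp6 (0.76, 0.143), Erg (0.71, 0.200), Egfl7 (-0.69, 0.327) and Id1 (-1.04, 0.248) were lost, and without TertCi HFD rep140 those of Vegfc (0.89, 0.080), F11r (0.83, 0.074), Erg (0.82, 0.103), Egfl7 (-1.08, 0.078) and Id1 (-1.25, 0.101). By DESeq2 the calls of Erg (adjusted p = 0.187), Egfl7 (0.087), Id1 (0.172) and Icam2 (0.297) were lost, and in nuclei of at least 2000 UMIs those of Bmp6 (0.62, 0.357), Vegfc (1.07, 0.051), F11r (0.72, 0.118), Erg (0.65, 0.349) and Egfl7 (-1.12, 0.071). With nuclei thinned to 1000 UMIs, Bmp6 (0.052), F11r (0.066) and Erg (0.222) were not called. With an endothelial sum at least 3 times each other sum, Erg (0.246) and Egfl7 (0.080) were not, nor was Erg with RLE scaling (0.052). With free RNA subtracted, none of Bmp6 (1.22), Vegfc (1.36), F11r (1.22), Erg (1.03), Egfl7 (-0.67), Id1 (-0.94) and Icam2 (-1.80) was called (adjusted p 0.127 to 0.6205), with log2 differences larger than before for the first 4 and smaller for the other 3. In nuclei of the 7 kept clusters, F11r (0.46, adjusted p = 0.306) and Erg (0.38, 0.401) were no longer called, while Bmp6 (0.74, 0.025), Vegfc (0.85, 0.049), Egfl7 (-1.23, 0.0021) and Id1 (-1.75, 0.0005) were. In those nuclei Fabp4 was lower with Tert (-1.45, adjusted p = 0.0088) and TertCi (-1.55, 0.0021) and Gpihbp1 with TertCi (-1.76, 0.0012), none of which was called over all members. The kept clusters include the one led by haemoglobin genes, mostly of mCherry HFD rep128, where Gpihbp1 stood at 465 CPM. Gpihbp1 was also called for TertCi with thinning to 1000 UMIs (-1.71, adjusted p = 0.020), with at least 5 of 7 markers (-1.50, 0.037), with no filter on low counts (-1.36, 5.4e-05) and without mCherry HFD rep129 (-1.84, 0.031), Tert HFD rep134 (-1.43, 0.0081) or Tert HFD rep136 (-1.42, 0.0048), and for Tert without Tert HFD rep134 (-5.03, 0.010) and with no filter (0.013). Fabp4 was also called for both genotypes with thinning (0.039 for Tert, 0.026 for TertCi), with no filter and without Tert HFD rep134 (0.0029, 0.014), and for TertCi without Tert HFD rep136 (0.0092).

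Most other list calls were of genes not enriched over free RNA. For TertCi, 6 of 13 genes of the VEGF and angiopoietin list were higher (Vegfc and Plcg1 enriched) and 1 was lower, beside 5.88% of all genes higher and 10.1% lower. The growth factor Vegfa stood at 77.4 CPM with TertCi against 23.3 CPM in mCherry HFD, below the 305 and 123 CPM of low-UMI barcodes. Of 11 antigen presentation genes 3 were higher for diet (H2-Ab1, H2-Eb1 and Cd74) and 5 were lower with TertCi, and Cd74, the invariant chain of class II molecules, stood at 49.0 against 205 CPM with 100.0 against 568 CPM in low-UMI barcodes. Of 13 insulin and IGF genes 6 were lower for diet and 4 higher for TertCi, among them Irs1, which stood at 14.4 CPM in mCherry HFD, 118 in mCherry SD and 62.7 in TertCi HFD, beside 45.8, 262 and 184 CPM in low-UMI barcodes. Of 9 cell cycle genes 3 were lower with TertCi, and none was enriched over free RNA. The diet counts in this paragraph stand beside 7.12% of all genes higher and 5.69% lower. Of 13 hypoxia and glycolysis genes 4 were lower for diet and 3 higher for TertCi, and of 13 basement membrane genes 3 were lower for diet and 2 higher for TertCi, none of them enriched over free RNA. The interferon list had 1 call for diet of 14 genes (Rsad2, 1.94) and 0 for either genotype. Without mCherry HFD rep128 the calls of Vegfa (adjusted p = 0.240), Cd74 (0.2035) and Irs1 (0.086) for TertCi and of Rsad2 (0.592) and Cd74 (0.4155) for diet were lost, and by DESeq2 that of Rsad2 (0.213). Other choices of nuclei also ended the TertCi call of Vegfa, which was not called in nuclei of at least 2000 UMIs (0.056), with an endothelial sum at least 3 times each other sum (0.089) or with thinning (0.069). For Tert, the arterial, venous, capillary, basement membrane, junction and identity lists had 0 calls, beside 2.57% of all genes higher and 4.74% lower. The VEGF and angiopoietin list had 1 higher and 3 lower of 13 for diet. For Tert it had 4 higher and 1 lower of 13, the insulin and IGF list 2 higher of 13, and the fatty acid list 1 higher and 2 lower of 18, none of them enriched over free RNA. The Notch list had 1 gene higher of 14, Rbpj, the DNA-binding partner of Notch, at 1.17 (adjusted p = 0.0033) but below its low-UMI level, a call lost with free RNA subtracted (1.72, 0.449).

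Stab2, which stood at 151 and 16.3 CPM in mCherry HFD, was at 3.71 and 3.85 CPM in Tert HFD and at 2.67 and 0 CPM in TertCi HFD. It was lower with Tert (-4.72, SE 0.75, adjusted p = 0.0016) and with TertCi (-5.50, SE 0.75, adjusted p = 0.0002), and without mCherry HFD rep128 neither call held (adjusted p 0.599 and 0.310). The Tert call was also lost without Tert HFD rep134 (-4.50, adjusted p = 0.057) and by DESeq2 (-4.41, 0.144). Among the opposite-strand genes, Sorbs2os was lower with Tert (-2.86, adjusted p = 0.0023, 120 and 93.8 CPM in mCherry HFD, 17.2 and 0 CPM in Tert HFD), a call lost without mCherry HFD rep128 (adjusted p = 0.105), by DESeq2 (0.119) and with free RNA subtracted (-3.06, 0.661). Taco1 stood at 328 and 2068 CPM in Tert HFD and rose against mCherry HFD (3.98, SE 0.75, adjusted p = 0.0048), a call lost without mCherry HFD rep128 (adjusted p = 0.129) and with free RNA subtracted (4.24, 0.5025). Samd5 (36.0 and 44.9 against 77.9 and 80.7 CPM, adjusted p = 0.027) rose with Tert by 1.15. The calcium sensor gene Ncald rose with Tert by 1.52 (adjusted p = 0.047) and with TertCi by 2.07 (15.9 and 12.2 against 47.4 and 66.2 CPM, adjusted p = 0.0028). The calls of Samd5 and Ncald (both genotypes) were lost without mCherry HFD rep128 (adjusted p 0.407, 0.373 and 0.110). The Tert calls of both were also lost by DESeq2 (0.175 for Samd5, 0.121 for Ncald), in nuclei of at least 2000 UMIs (0.088, 0.164), with an endothelial sum at least 3 times each other sum (0.068, 0.181), with thinning to 1000 UMIs (0.326, 0.133), with at least 5 of 7 markers (0.071, 0.070), in the kept clusters (0.271, 0.140) and with free RNA subtracted (0.665, 0.795, with log2 differences of 1.32 and 2.09). With Tert, the call of Samd5 was also lost without Tert HFD rep134 (log2 difference 1.365). That of Ncald with Tert was lost without mCherry SD rep144 (1.53), mCherry SD rep146 (1.54) or mCherry HFD rep129 (1.465). It was also lost without Tert HFD rep136 (1.14), TertCi HFD rep138 (1.61) or TertCi HFD rep140 (1.61). The TertCi call of Ncald was lost with free RNA subtracted (2.50, 0.173).

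Between Tert HFD and TertCi HFD, edgeR called 0 genes, with 482 of 10603 at an unadjusted p under 0.05, and DESeq2 also called 0, with 123 at an unadjusted p under 0.05. The smallest p-values belonged to the interleukin receptor gene Il31ra (6.63 and 11.5 CPM in Tert HFD, 36.0 and 38.7 in TertCi HFD, log2 difference -2.49), Mmp12 (1.72), Lrrc36 (-1.21) and the ribosomal gene Rps10 (2.77), with adjusted p of 0.998 for each. With no filter on low counts 15 genes were called, among them Lrrc36 (-1.22, adjusted p = 0.029). Il31ra, Mmp12 and Rps10 were below their low-UMI level. For Tek, the difference was -0.37 (SE 0.19), and for Kdr, which encodes the main VEGF receptor, it was 0.25 (SE 0.35). Neither Kdr, Tek, Vwf nor Nos3, the endothelial nitric oxide synthase gene, was called in any of the 4 comparisons, although Nos3 was for Tert without mCherry SD rep144 (0.92, adjusted p = 0.037) or mCherry SD rep146 (0.93, 0.038). Kdr stood at 55.6 and 172, 181 and 151, 261 and 80.7, and 158 and 139 CPM, and Nos3 at 35.4 and 95.3, 58.7 and 61.2, 109 and 92.3, and 82.7 and 76.3 CPM.

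The genes of the altered locus gave too few counts for a test in endothelial nuclei alone. Cdkn1a stood between 3.85 and 9.34 CPM in endothelial nuclei (91 UMIs in all), against 1.88 to 33.5 CPM in low-UMI barcodes. The fit with progenitor nuclei kept Cdkn1a and called it for TertCi. Its effect was 2.92 higher in endothelial than in progenitor nuclei (SE 0.68, edgeR adjusted p = 0.0015). Progenitor nuclei by themselves gave -2.135 (edgeR adjusted p = 0.014), and the endothelial side rests on these few UMIs. That fit did not call Cdkn1a for diet or Tert, nor the Tert gene in any comparison. Tert stood between 0 and 10.1 CPM (17 UMIs), highest in mCherry SD rep144 with 2 UMIs and at 0 in mCherry HFD rep129 and Tert HFD rep136. mCherry had 0 of 12390463 UMIs, which allows up to 0.242 CPM. These counts do not check the genotype labels.

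Differences from progenitor nuclei were tested in one fit with the library as a block, over 16912 genes. The diet effect differed in 2.00% of genes (91 or 0.538% higher and 248 or 1.47% lower in endothelial than in progenitor nuclei), the Tert effect in 1.09% (0.763% higher, 0.325% lower) and the TertCi effect in 2.55% (363 or 2.15% higher, 68 or 0.402% lower). By DESeq2 the counts were 98, 19 and 58, and without mCherry HFD rep128 they were 121, 60 and 150. The diet count was 182 without mCherry SD rep146. The Tert count was 114 without TertCi HFD rep138 and 120 without Tert HFD rep136, and the TertCi count was 254 without mCherry HFD rep129, 116 without TertCi HFD rep138 and 172 without TertCi HFD rep140.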

How the data were processed

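The data are single-nucleus UMI counts of 8 libraries of visceral white adipose tissue. The authors deposited whole-number counts per gene and barcode for 56749 features; reads were handled with bcl2fastq 2.20.0 and Cell Ranger 5.0.1 against mm39, per the submitters' processing notes, while the file headers name software version 7.1.0. Filters and class rules are given in the report, and no doublet caller was run. Free RNA was read from barcodes of 1 to 100 UMIs.

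Counts were summed per library (198003 to 3772129 UMIs) and tested with edgeR 4.0.16 (limma 3.58.1, R 4.3.3): TMM scaling, filterByExpr, quasi-likelihood fits over all 4 groups and Benjamini-Hochberg adjustment at 0.05. The difference from progenitors came from a fit with library as a block. Alternatives used DESeq2 1.42.0, RLE scaling, other nuclei and left-out libraries. Clusters came from scanpy 1.11.5 (1500 variable genes, 20 components, 15 neighbours, resolution 0.5). A cluster was set aside when its summed adipocyte, progenitor, macrophage, mural, mesothelial or T and NK markers were over 3 times the median of the clusters. The fits were also run on simulated counts with changes of known size. The simulation held no free RNA and no library effects, so it cannot check the calls against either. Replicates are separate mice by their labels.

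Named genes were the called members of the lists (at most 4 a list), the 8 largest called changes each way among genes of at least 20 CPM, at 2 times the low-UMI level or more, with groups that do not overlap, and a fixed set (Kdr, Tek, Vwf, Nos3, Cd36, Fabp4, Gpihbp1, Cdkn1a, Tert and mCherry). The members and lists were chosen with earlier results of these data known. Genes named outside this rule, such as cluster leaders, Sox17, Dll4, Efnb2 and Plcg1, were chosen after their values were seen. Overlapping and antisense genes cannot be told apart where counting did not use strand, which is not given in the sources used here. Of the genes that this rule names, a single one is not reported here.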

Additional observations from a re-analysis of the deposited data

Results flagged for a closer look

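The effects of diet, Tert and TertCi each differed between endothelial and progenitor nuclei of the same libraries, by the edgeR test of that difference, in 339, 184 and 431 genes. The values below are log2 differences, endothelial minus progenitor, of the 5 genes with the smallest adjusted p in each direction. Each comparison uses the mCherry HFD libraries, which stood apart.

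For diet, the difference was positive for the Rac activator gene Prex2 (1.85), Rgcc (2.15), Myrip (2.59), Rundc3b (3.02) and Rasgrf2 (1.72). For Prex2 the effect was 0.37 in endothelial and -1.51 in progenitor nuclei, and for Rgcc -0.25 and -2.36. The difference was negative for Pdzrn3 (-2.86), Adamtsl1 (-2.22), Bnc2 (-2.02), Sgcd (-2.06) and Rbms3 (-1.87).

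For Tert, it was positive for Mageb18 (2.61), Sgcd (2.06), Pdzrn3 (2.04), the glutamate transporter gene Slc1a3 (3.34) and Efr3b (1.80), and negative for Lsamp (-3.26), the muscarinic receptor gene Chrm3 (-2.58), Prex2 (-1.53), Csmd1 (-1.83) and Nrcam (-3.15).

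For TertCi, it was positive for the cadherin gene Cdh23 (3.03), Mageb18 (2.60), Pdzrn3 (2.30), the kinase gene Prkch (1.87) and Chst11 (1.94), and negative for Chrm3 (-2.30), Prex2 (-1.94), Colgalt2 (-2.54), Pcdh7 (-1.48) and Lsamp (-1.97). Prex2 and Pdzrn3 appear in all 3 comparisons, which share the mCherry HFD libraries. The part of free RNA in these differences was not tested.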

How the results depend on the processing

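Counts of called genes are given for diet, Tert and TertCi in that order. They were 701, 323 and 699 by DESeq2, 804, 399 and 1041 in nuclei of at least 2000 UMIs, 666, 380 and 792 with an endothelial sum at least 3 times each other sum, and 677, 400 and 768 with nuclei thinned to 1000 UMIs. Without a filter on low counts, Tert had 1357, TertCi 2550 and Tert against TertCi 15. In alternatives chosen after seeing the data, the counts were 3, 2 and 11 with free RNA subtracted and 580, 394 and 765 in nuclei of the 7 kept clusters. With 1 library left out they ran from 434 to 1780, 115 to 821 and 405 to 2360, and from 0 to 3 for Tert against TertCi. Differences from progenitors numbered 98, 19 and 58 by DESeq2, with 99 (Tert) and 267 (TertCi) in nuclei of at least 2000 UMIs, and ran from 121 to 354, 60 to 185 and 116 to 437 with 1 library left out. The cause was not tested. RLE scaling and a minimum of 5 markers, run for the counts of called genes and not for the differences from progenitors, kept those within 1.5 times. Exact p-values of the nuclei shares ran from 0.162 to 0.410, and those of the ratio to progenitors from 0.124 to 0.295, with 1 library left out.

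Of 2671 alternative values of the named genes, 1965 kept direction and side of the threshold, 669 lost the call, 30 gained one and 7 changed sign. The changes of sign all came with free RNA subtracted: Angpt1 (0.36), Lama4 (0.34), Cd74 (-0.40), Bnip3 (2.38) and Pfkfb3 (0.035) for diet, and Lama4 (-1.76) and Bnip3 (-6.76) for TertCi. Of 131 calls, 14 held with any 1 library left out. No paired analysis was possible because no replicate number occurs in more than 1 group. Precision is limited by 2 mice a group and by 83 to 122 nuclei in 3 libraries.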
